A study of Mus musculus with 8 samples.

Results

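Immunoglobulin lambda light chain genes and the genes of the surrogate light chain were followed across resting and germinal centre B cells of the mouse on 8 Affymetrix arrays. Members were taken by annotated symbol (Iglc1, Iglv1, Igll1, Vpreb1, Vpreb2 and Vpreb3), and every probe set that names any of them was kept separate, which gave 8 of the 12488 probe sets. They cover 5 of the 6 symbols, since no probe set carries the symbol Vpreb2. All mice were QMxB6 F1 animals, so every group shares that genotype. Resting B cells were sorted as GL7- B220+ from unimmunised mice, in pools of 6 and 9 mice. The other 3 groups were sorted as GL7+ B220+ germinal centre B cells. The T-independent group, called TI day 4 here, had received 30 µg of NP-Ficoll intraperitoneally, in pools of 4 and 10 mice, and was taken on day 4. The carrier-primed T-dependent group, TD day 4, had been primed with 50 µg of chicken gamma-globulin precipitated in alum together with heat-killed B. pertussis. Its challenge was 50 µg of soluble NP-CGG after 5 weeks, and cells were taken 4 days after that, in pools of 6 and 9 mice. The unprimed T-dependent group, TD day 10, had received 50 µg of NP on the same carrier in alum with heat-killed B. pertussis and was taken on day 10, in 2 pools of 6 mice. Each group has 2 arrays, and per the series design the pools are biological replicates. Ages are not given in the labels.

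An antibody light chain is either kappa or lambda, and a B cell normally expresses a single kind. In the QM mouse the heavy chain locus carries a rearranged variable region that binds the hapten NP when it is paired with a lambda light chain. Iglv1 is the variable segment and Iglc1 the constant region of the lambda-1 chain. Igll1 (also called lambda-5) and the Vpreb genes encode the surrogate light chain, which stands in for a light chain on precursor B cells of the bone marrow before light chain rearrangement. The carboxy-terminal part of lambda-5 resembles a lambda constant domain, and VpreB resembles a variable domain. Vpreb3 (8HS-20) is a related small protein that is made by later B cells as well.

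RefSeq places Igll1, Vpreb1, Vpreb2, Iglc1 and Iglv1 on mouse chromosome 16 and Vpreb3 on chromosome 10. Igll1 and Vpreb1 are direct neighbours with 0 annotated genes between them, and 52 annotated genes lie between Vpreb1 and Vpreb2. Promoter windows from RefSeq (build GRCm38.p6) were found for 4 of the 6 genes. The windows of Vpreb1 and Vpreb2 overlap in an almost identical stretch of 156 bases, 153 of them the same (98.1%). The part before the Vpreb1 start is printed, with the bases that differ between the windows in capitals. It lies at chr16:16869256-16869361 on the minus strand for Vpreb1 and at chr16:17980315-17980420 on the plus strand for Vpreb2. In the Vpreb2 window it is the end farthest from the start. Both printed parts lie before the starts, so they do not compare the transcripts.
Vpreb1: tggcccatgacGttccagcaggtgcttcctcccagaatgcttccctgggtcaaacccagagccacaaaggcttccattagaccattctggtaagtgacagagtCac
Vpreb2: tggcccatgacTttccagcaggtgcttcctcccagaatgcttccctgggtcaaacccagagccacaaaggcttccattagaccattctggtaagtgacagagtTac
Only 2 of these 106 bases differ. Whether the Vpreb1 probe sets also take up Vpreb2 RNA was not tested, so their values are given as those of the Vpreb1 annotation only.

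The 250 bases before the starts of Igll1 and Vpreb3 are shown because these are the surrogate chain genes with the brightest probe sets. The Igll1 window is chr16:16863986-16864235 on the minus strand, and the capitals mark an E-box of the kind bound by E proteins. The Vpreb3 window is chr10:75948050-75948299 on the plus strand, and the capitals mark an octamer, the motif known from immunoglobulin variable region promoters.
Igll1: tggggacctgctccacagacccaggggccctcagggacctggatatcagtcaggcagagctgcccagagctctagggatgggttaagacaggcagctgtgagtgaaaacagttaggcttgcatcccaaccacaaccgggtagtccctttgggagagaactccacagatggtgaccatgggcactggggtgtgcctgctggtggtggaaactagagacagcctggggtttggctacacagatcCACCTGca
Vpreb3: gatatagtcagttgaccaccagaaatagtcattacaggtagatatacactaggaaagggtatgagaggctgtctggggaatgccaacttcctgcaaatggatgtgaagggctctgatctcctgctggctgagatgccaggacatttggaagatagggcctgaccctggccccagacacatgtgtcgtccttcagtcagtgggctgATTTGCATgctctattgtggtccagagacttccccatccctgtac
Both strands were searched for the octamer ATTTGCAT, the E-box CAGGTG and the wider E-box CANNTG, which includes the narrower. The octamer occurred 1 time in the Vpreb3 window, 0 times in those of Igll1, Vpreb1 and Vpreb2, and in 1.6% of all 32851 windows. CAGGTG occurred 1 time each in Igll1, Vpreb1 and Vpreb2, 0 times in Vpreb3 and in 17.2% of all windows, and CANNTG was in 66.2% of all windows and in each of the 4.  These matches describe letters only.

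Intensities are the authors' deposited values on a linear scale in arbitrary units, with array medians between 77 and 89. For the tests, values under a floor of 81, the 50th percentile of all values, were raised to the floor and log2 was taken, and differences below are on this scale. All 8 member probe sets were above the floor on at least 2 arrays and were tested, among 7253 probe sets. Adjusted p-values are from limma with Benjamini-Hochberg adjustment over all of these, and a probe set is called at an adjusted p under 0.05. Defining B cell genes were present: the summed intensity of 6 marker genes, among them Cd79a, Cd79b and Ms4a1, was 29790 to 33129 in resting and 19601 to 23659 in the germinal centre arrays. The sum of 6 germinal centre markers was 2002 to 2396 in resting and higher in the GL7+ arrays. It was 3464 to 3531 in TI day 4, 4828 to 5334 in TD day 4 and 5652 to 5679 in TD day 10. All 5 tested germinal centre markers were lower in TI day 4 than in either T-dependent group. Gcsam was called lower than in TD day 4 (-2.30 ± 0.30, adjusted p = 0.028) and TD day 10 (-2.12 ± 0.30, adjusted p = 0.023). Both Gcsam calls were lost without any single germinal centre array. Of 7 T cell markers 5 were at or under the floor on all arrays. Of the 2 that were tested, Cd3g read 62 to 109, and Cd4 was above the floor on all arrays. Cd4 read 292 and 339 in resting, 660 and 422 in TD day 4, 425 and 710 in TD day 10, and 366 and 382 in TI day 4. Neither was called in any comparison. In sorted pools of this kind, fewer cells of a type and less RNA per cell cannot be told apart.

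The lambda probe set shared by Iglc1 and Iglv1 (93638_s_at) gave the clearest pattern of the family. It read 20316 and 21989 in TI day 4, 2832 and 3894 in TD day 4, 1246 and 1349 in TD day 10, and 2919 and 2860 in resting. Both TI arrays stood far above the other 6, both TD day 10 arrays were the lowest, and TD day 4 overlapped with resting. The group mean was 21152.5 ± 1180 for TI day 4, 3363 ± 751 for TD day 4, 1297.5 ± 72.8 for TD day 10 and 2889.5 ± 41.7 for resting B cells (SD, n = 2 arrays each).

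Against TD day 4, lambda RNA rose 6.36-fold in TI day 4, a log2 difference of 2.67 ± 0.20 (SE, limma adjusted p = 0.0067). Against TD day 10 it rose 16.3-fold, a log2 difference of 4.03 ± 0.20 (adjusted p = 0.0015). Against resting it rose 7.32-fold, a log2 difference of 2.87 ± 0.20 (adjusted p = 0.0012). These comparisons share the TI arrays, so they are not separate pieces of evidence. TD day 10 fell 2.23-fold below resting, with a log2 difference of -1.16 ± 0.20 (adjusted p = 0.017). TD day 4 differed from resting by 0.20 on the log2 scale, with a 95% interval from -0.27 to 0.68 (adjusted p = 0.64). TD day 10 lay below TD day 4 by a log2 difference of -1.36 ± 0.20 with no overlap of the arrays, but the difference did not pass (adjusted p = 0.23, unadjusted p = 0.00039). In that comparison limma called 0 of the 7253 probe sets, while 373 had an unadjusted p under 0.05. The order of levels was thus TI day 4, then TD day 4 and resting without separation, then TD day 10, with the last step called against resting and not against TD day 4.

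The fall in TD day 10 is the less firm of these calls. Leaving out resting replicate 1 or 2 gave an adjusted p of 0.050 (just above the threshold) or 0.058, and leaving out TD day 10 replicate 1 or 2 gave 0.094 or 0.073, with log2 differences between -1.21 and -1.10. The difference between TI day 4 and TD day 4 lost its call without TD day 4 replicate 1 (2.44, adjusted p = 0.075) and without TI day 4 replicate 2 (2.61, adjusted p = 0.070).

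**Figure D1:**
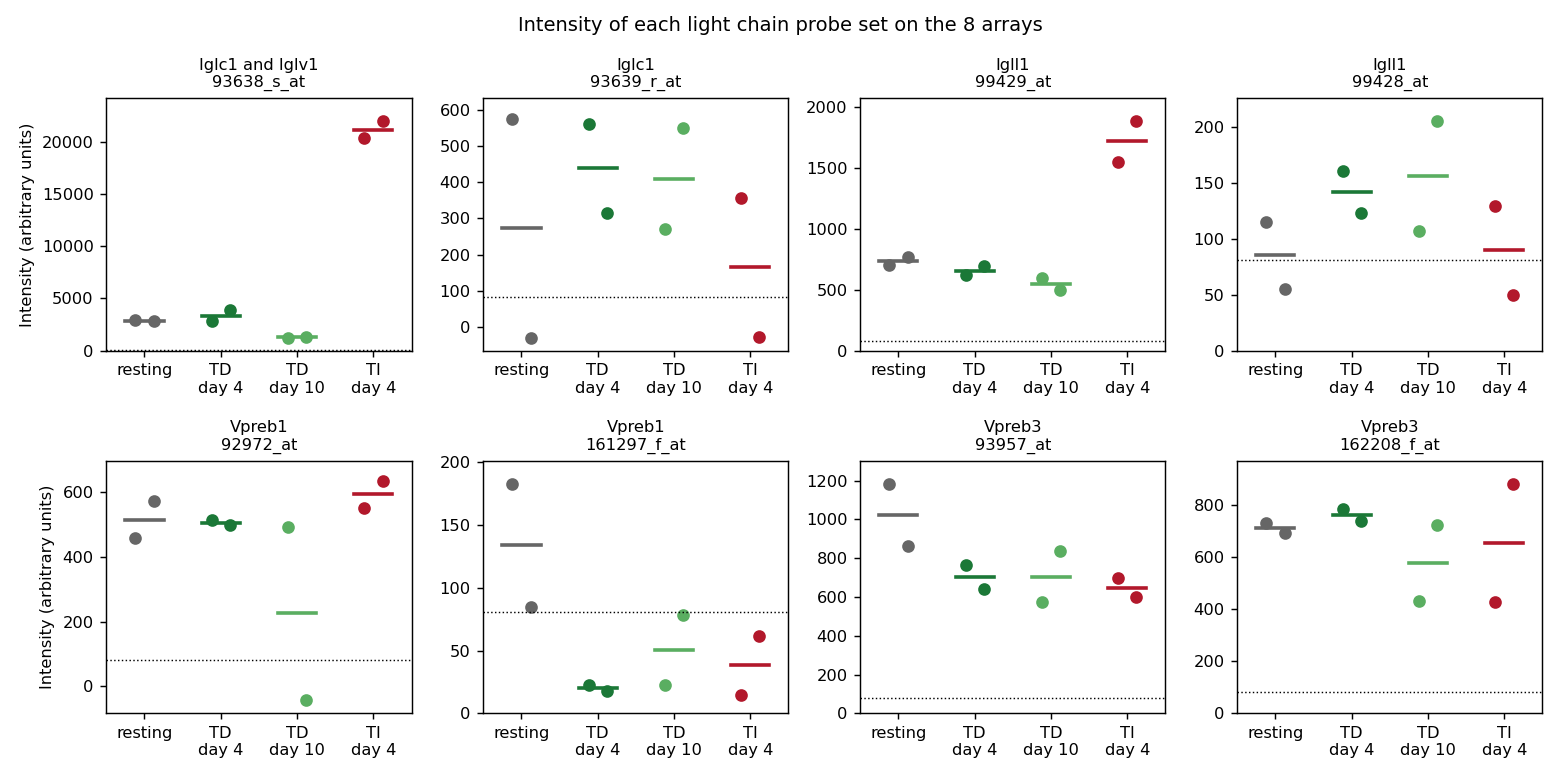
Intensity in arbitrary units on a linear axis for each of the 8 member probe sets, by group on the horizontal axis. Points are the 2 arrays of a group, bars their mean, and the dotted line the floor of 81. The TI day 4 arrays stand apart at 93638_s_at (20316 and 21989) and at 99429_at (1554 and 1888), and at none of the other 6 probe sets are both of them above all other arrays.

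A second probe set is annotated to Iglc1 alone (93639_r_at) and did not follow the shared one. Its suffix marks a set for which the array maker's usual probe selection rules were relaxed, whereas the suffix of 93638_s_at marks probes shared by several transcripts. It read 576 and -30 in resting, 561 and 316 in TD day 4, 272 and 549 in TD day 10, with 357 and -28 in TI day 4. The arrays of every group overlapped with those of the others, and 2 of the 8 were under the floor. None of its 6 differences passed, and they lay between -1.31 and 0.96 on the log2 scale (smallest adjusted p = 0.64). Between TI day 4 and TD day 4 its 95% interval ran from -3.94 to 1.32, against 2.19 to 3.15 at the shared probe set.

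Igll1, which encodes lambda-5, also had a probe set that was higher in TI day 4. At 99429_at the arrays read 1554 and 1888 in TI day 4, 618 and 699 in TD day 4, 597 and 495 in TD day 10, and 708 and 768 in resting. The 2 TI arrays were above the other 6, which lay within 495 to 768. The rise was 2.61-fold over TD day 4 (log2 difference 1.38 ± 0.19, SE, limma adjusted p = 0.032), 3.15-fold over TD day 10 (1.66 ± 0.19, adjusted p = 0.014) and 2.32-fold over resting (1.22 ± 0.19, adjusted p = 0.013). The differences among TD day 4, TD day 10 and resting did not pass, and the largest of them was -0.44 ± 0.19 between TD day 10 and resting (adjusted p = 0.23). With the replicate number as a block the difference between TI day 4 and TD day 4 had an adjusted p of 0.076.

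The calls at this Igll1 probe set depended on single arrays. Between TI day 4 and TD day 4 the adjusted p was 0.18 or 0.16 without TD day 4 replicate 1 or 2, 0.079 or 0.15 without TI day 4 replicate 1 or 2, and 0.069 without either TD day 10 array. Between TI day 4 and TD day 10 it was 0.080 or 0.083 without TD day 10 replicate 1 or 2 and 0.053 or 0.090 without TI day 4 replicate 1 or 2. Against resting it was 0.070 without TI day 4 replicate 2 and 0.050, just above the threshold, without resting replicate 1. In these fits the log2 difference stayed between 1.08 and 1.80.

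The other Igll1 probe set (99428_at) was dim and gave another picture. It read 129 and 50 in TI day 4, 160 and 123 in TD day 4, 107 and 205 in TD day 10, and 115 and 55 in resting. TD day 4 lay above resting without overlap, all other pairs of groups overlapped, and 2 arrays were under the floor. Its difference between TI day 4 and TD day 4 had a 95% interval from -1.42 to 0.51, which lies wholly below the interval of 0.93 to 1.84 at 99429_at. The 2 probe sets of Igll1 therefore disagreed. Across the 8 arrays the log2 values of 99429_at and of the lambda probe set 93638_s_at had a Pearson correlation of 0.97, given as a description since both are highest in the same 2 arrays. Whether 99429_at takes up RNA of the lambda constant regions was not tested, and its values are those of the Igll1 annotation.

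Vpreb1 encodes the variable-like chain of the surrogate light chain. At 92972_at it read 457 and 572 in resting, 512 and 497 in TD day 4, 493 and -43 in TD day 10, with 551 and 633 in TI day 4. Apart from TD day 10 replicate 2, at -43, the arrays lay between 457 and 633, and TI day 4 was above both T-dependent groups without overlap. None of its 6 differences passed (smallest adjusted p = 0.37), and between TI day 4 and TD day 4 the 95% interval ran from -1.62 to 2.07. Without TD day 10 replicate 1 the low array alone stood for its group, and the difference of TD day 10 from resting became -2.66 (adjusted p = 0.021). The 3 genes whose values were most like those of this probe set, Fkbp8, Psmg3 and Cyth2, also read lowest on TD day 10 replicate 2, at 268, 22 and 80.

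At the other Vpreb1 probe set (161297_f_at), whose suffix marks a sequence family, the level was near or under the floor. It read 183 and 85 in resting and 15 to 78 on the 6 germinal centre arrays, all of these under the floor. The floored log2 difference from resting was -0.62 ± 0.34 (SE, adjusted p = 0.37, 0.36 and 0.37 for TD day 4, TD day 10 and TI day 4 in turn) and did not pass. Without resting replicate 2 it was -1.18 and was called in all 3 (adjusted p = 0.016, 0.016 and 0.015), with the single resting array at 183. The 2 Vpreb1 probe sets thus differed in level and in pattern.

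Vpreb3 was read by 2 probe sets, both above the floor on all 8 arrays. At 93957_at it read 1185 and 864 in resting, 766 and 639 in TD day 4, 576 and 835 in TD day 10, with 697 and 600 in TI day 4. The resting arrays were the highest, and the germinal centre groups overlapped with each other. The log2 differences from resting were -0.53 ± 0.26 for TD day 4, -0.55 ± 0.26 for TD day 10 and -0.65 ± 0.26 for TI day 4 (SE), and they did not pass (adjusted p = 0.31, 0.28 and 0.21). At 162208_f_at the arrays read 729 and 689 in resting, 783 and 735 in TD day 4, 431 and 721 in TD day 10, with 427 and 880 in TI day 4. TD day 4 lay above resting and above TD day 10 without overlap, while TI day 4 spanned all of them. The 6 differences lay between -0.44 and 0.14 (smallest adjusted p = 0.66). For TI day 4 against TD day 4 the 95% interval was -0.75 to 0.52 at 93957_at and -1.26 to 0.64 at 162208_f_at, so at the 8 arrays used here rises as large as that of the lambda probe set were outside both intervals.

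**Figure D2:**
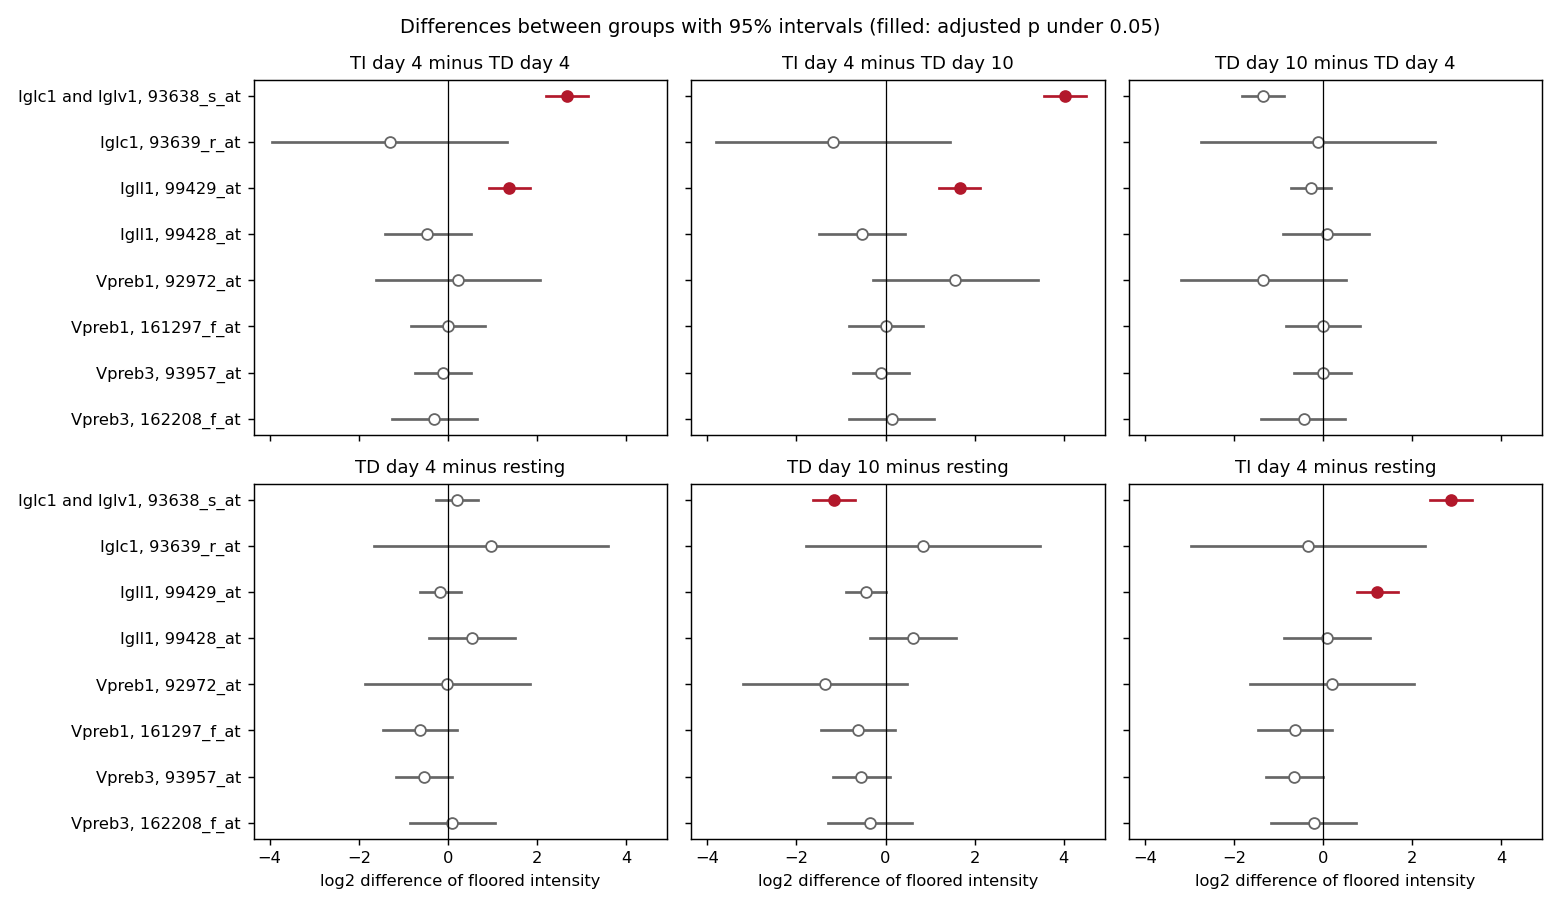
Differences between groups on the log2 scale of floored intensity (horizontal axis) for the 8 member probe sets (rows), in the 6 comparisons. Points are limma estimates, lines 95% intervals, and filled red points have an adjusted p under 0.05. The lambda probe set 93638_s_at is called in 4 comparisons and the Igll1 probe set 99429_at in 3, and the intervals of 93639_r_at and 92972_at are the widest.

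Counted over the 8 member probe sets, 2 were higher and 0 lower in TI day 4 than in TD day 4, where limma called 0.731% of all tested probe sets higher and 0.717% lower. Against TD day 10 again 2 were higher and 0 lower in TI day 4 (1.20% of all tested higher and 1.20% lower). Against resting 2 were higher and 0 lower in TI day 4 (5.42% and 3.98% of all tested), 0 were higher and 1 lower in TD day 10 (6.45% and 4.44%), and 0 were called in TD day 4 (5.83% and 3.58%), with 0 members at an unadjusted p under 0.05. Between TD day 10 and TD day 4, 0 were called, with 0% of all tested in either direction and 1 member, 93638_s_at, at an unadjusted p under 0.05. The member median of the log2 difference was -0.06 between TI day 4 and TD day 4, beside -0.01 over all tested probe sets. The called probe sets were the same pair, 93638_s_at and 99429_at, in all 3 comparisons of TI day 4.

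Kappa light chain probe sets, which give the alternative to lambda, were set beside the lambda values. Of 35 probe sets whose symbols all begin with Igk, 32 were tested. Between TI day 4 and TD day 4, 0 were called higher and 11 lower, beside 0.731% and 0.717% of all tested probe sets. Their median log2 difference was -1.42 against -0.01 over all tested probe sets. Between TI day 4 and TD day 10, 1 was higher and 12 lower (median -1.42), beside 1.20% and 1.20% of all tested. Against resting, 0 were higher and 18 lower in TI day 4 (median -1.52), beside 5.42% and 3.98% of all tested. Between TD day 10 and TD day 4, 0 were called in either direction (median -0.15), as were 0% of all tested. The counts rest on single arrays: against TD day 4, 0 were called without TD day 4 replicate 1 or 2 or TI day 4 replicate 2, and 1 without TD day 10 replicate 1 or 2 or TI day 4 replicate 1. Against TD day 10, 0 were called without TD day 10 replicate 1 or 2 or TI day 4 replicate 2, 1 without TI day 4 replicate 1 and 2 without either TD day 4 array. Against resting, 12 and 8 were called without TI day 4 replicate 1 and 2. With the replicate number as a block 3 were called against TD day 4 and 6 against TD day 10. TD day 4 had 0 called against resting, where 5.83% of all tested were higher and 3.58% lower. TD day 10 had 1 lower (101329_f_at, Igkv15-103) and 0 higher, where 4.44% of all tested were lower and 6.45% higher. Neither count is above those shares. Without resting replicate 2 these counts were 4 and 6. The TD day 10 count was 0 without either TD day 4 array, TD day 10 replicate 1 or either TI day 4 array. Many kappa probe sets come from related variable segments, so they are not independent of each other, and 17 of the 35 carry the suffix of a sequence family.

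The widest kappa difference from TD day 4 was at the variable segment Igkv6-14 (101331_f_at), which read 2219 and 1250 in resting, 1799 and 2101 in TD day 4, 2364 and 3118 in TD day 10, with 132 and 9 in TI day 4. It was at least 18.8-fold lower in TI day 4 than in TD day 4 (adjusted p = 0.0099). Igkv10-96 at 102157_f_at read 113 and 90 in TI day 4 and 636 to 2463 on the other arrays. It was called lower in TI day 4 than in TD day 4 (-3.13 ± 0.34, adjusted p = 0.018) and TD day 10 (-2.92 ± 0.34, adjusted p = 0.016). It was also called lower than in resting (-4.20 ± 0.34, adjusted p = 0.0018). The call against TD day 4 was lost without any single germinal centre array. The brightest probe set that includes the kappa constant region Igkc (93086_at, annotated to several kappa genes) read 21899 and 18523 in resting, 18733 and 18782 in TD day 4, 16156 and 17495 in TD day 10, with 12366 and 13149 in TI day 4. Both TI arrays were the lowest, but its log2 difference from TD day 4, -0.56 ± 0.16 (SE), did not pass (adjusted p = 0.19). An exception in the other direction was Igkv9-120 at 93904_f_at, with 22145 and 20776 in TI day 4, 2181 and 2835 in TD day 4, 1261 and 1901 in TD day 10, and 8195 and 2090 in resting. It was 13.9-fold higher in TI day 4 than in TD day 10 (adjusted p = 0.037), and its difference of 3.11 ± 0.61 (SE) from TD day 4 did not pass (adjusted p = 0.075). Igkv14-111 at 100682_f_at was also highest in both TI arrays, at 6199 and 6383 against 1418 to 3900 on the others, but its log2 differences of 1.42 ± 0.47 from TD day 4 and 1.88 ± 0.47 from TD day 10 (SE) did not pass (adjusted p = 0.24 and 0.11). Other probe sets of Igkv6-14, Igkv9-120 and Igkv14-111 gave mixed values. A probe set shared by Igkv6-14 and Igkv4-53 (96964_at) was also called lower in TI day 4 than in TD day 4 (-2.34 ± 0.33, adjusted p = 0.034) and TD day 10 (-2.46 ± 0.33, adjusted p = 0.021). The dim Igkv6-14 probe set 97569_at (-0.24 ± 0.15 from TD day 4) and the Igkv9-120 probe set 101347_at (-0.45 ± 0.32) did not pass. A further Igkv9-120 probe set, 99396_at, was not tested and read 64 and 173 in TI day 4 and -75 to 47 elsewhere. The Igkv14-111 probe set 96974_at went the other way from 100682_f_at. It was called lower in TI day 4 than in TD day 4 (-2.62 ± 0.33, adjusted p = 0.026) and TD day 10 (-2.57 ± 0.33, adjusted p = 0.018). It was also called lower than in resting (-3.04 ± 0.33, adjusted p = 0.0043). At 100683_r_at, also Igkv14-111, the differences from TD day 4 (-0.42 ± 0.85) and TD day 10 (0.86 ± 0.85) did not pass. Igkv6-14 and Igkv10-96 were named by their place among the called kappa probe sets. Igkv9-120, Igkv14-111 and Igkv15-103 were singled out after their values were seen.

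**Figure D3:**
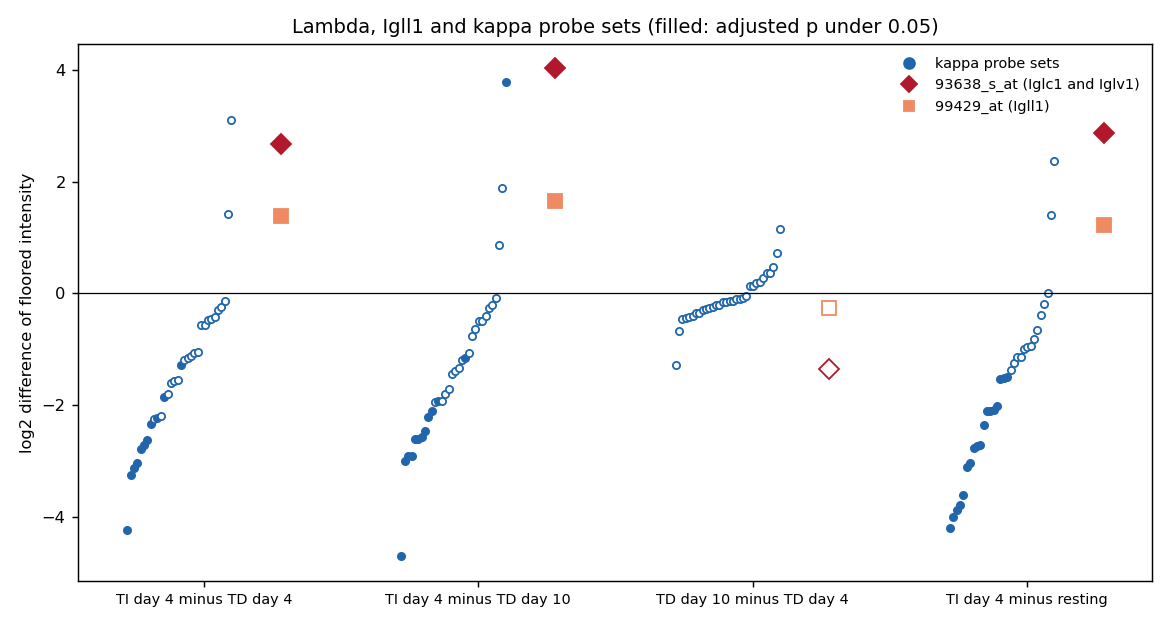
log2 difference of floored intensity (vertical axis) in 4 comparisons for the 32 tested kappa probe sets (circles, ordered by value), the lambda probe set 93638_s_at (diamond) and the Igll1 probe set 99429_at (square). Filled symbols have an adjusted p under 0.05. In TI day 4 against TD day 4, lambda is at 2.67 while 30 of the 32 kappa probe sets lie below 0, and between the T-dependent groups lambda is at -1.36 with the kappa median at -0.15.

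Genes that act on light chain loci or mark precursor B cells were counted by list. Of 9 tested early B cell and pre-B cell genes 0 were called between any of the germinal centre groups. Over all tested probe sets, 0.731% were called higher and 0.717% lower in TI day 4 than in TD day 4. Against TD day 10 the shares were 1.20% and 1.20%, and between the T-dependent groups they were 0%. A count of 0 in a list of this size is near those shares. In TD day 4 against resting 1 was higher and 1 lower, beside 5.83% and 3.58% of all tested. Counts of 1 in this list are near those shares too. Cd24a, a surface glycoprotein, was higher (log2 difference 0.71 ± 0.16, adjusted p = 0.044). Enpep, the BP-1 peptidase of pre-B cells, was at least 2.37-fold lower (adjusted p = 0.023). Cd24a kept its call only without resting replicate 1, among fits that each left out 1 of the 8 arrays. Enpep lost its call without resting replicate 1 or any single array of TD day 4 or TI day 4. With the replicate block neither was called. The recombinase gene Rag2 and the receptor gene Kit were at or under the floor on all arrays, while Rag1, its partner in the recombinase, read 568 to 1068 at 161740_r_at and the polymerase gene Dntt read 85 to 190. Il7r, the interleukin receptor of precursor B cells, read 30 to 137. The summed intensity of 7 pro-B and pre-B cell markers was 1550 to 1892 in resting, 1854 to 1997 in TD day 4, 1846 to 1894 in TD day 10, with 1903 to 2140 in TI day 4.

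Of 16 tested regulators of light chain loci 0 were called between germinal centre groups. That is near the share over all tested probe sets, at most 1.20% in either direction in these comparisons. Against resting, the coactivator gene Pou2af1 was called higher in all 3 germinal centre groups, by 0.86, 0.90 and 0.81 on the log2 scale for TD day 4, TD day 10 and TI day 4 in turn (SE 0.19 each, adjusted p = 0.041, 0.031 and 0.048), and Spib, an ETS factor, fell 1.99-fold in TD day 10 (adjusted p = 0.024). For TD day 4 and TI day 4 the Pou2af1 call was lost without any single array (adjusted p between 0.063 and 0.18 and between 0.067 and 0.18) and with the replicate block. For TD day 10 it was lost without any single array of TD day 10 or resting and with the block, and the Spib call without resting replicate 2 or any single array of TD day 4 or TD day 10. For Irf4, an activator of light chain enhancers, the log2 difference between TI day 4 and TD day 4 was 0.80 ± 0.83 (adjusted p = 0.78), for Irf8 0.16 ± 0.19 (adjusted p = 0.80), for Pax5 0.02 ± 0.17 (adjusted p = 1) and for Tcf3, the gene of the E2A proteins, -0.10 ± 0.44 (adjusted p = 0.98). None of these 4 passed in any comparison.

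Of 12 tested genes of the receptor complex and its first signalling steps, 0 were called between germinal centre groups. Here too the share over all tested probe sets was at most 1.20% in either direction. Cd79b, which with Cd79a carries the light and heavy chains to the surface, was lower than in resting in TD day 4 (-0.77 ± 0.15, adjusted p = 0.032) and TD day 10 (-0.92 ± 0.15, adjusted p = 0.016). The phosphatase gene Ptpn6 was lower in the same groups (-0.99 and -1.05, adjusted p = 0.019 and 0.013), Blk in TD day 10 (-1.08, adjusted p = 0.033) and Cd22 in TI day 4 (-0.97, adjusted p = 0.047). In TD day 4 the Ptpn6 call was lost without either TD day 4 array, and the Cd79b call without these, resting replicate 1 or either TI day 4 array and with the replicate block. In TD day 10 the Cd79b call was lost without TD day 10 replicate 1, the Ptpn6 call without either TD day 10 array, and the Blk call without any single array other than resting replicate 1. The Cd22 call was lost without any single array other than those of resting, and with the replicate block. For the adaptor gene Blnk and the kinase gene Syk the log2 differences between TI day 4 and TD day 4 were 0.23 ± 0.18 and 0.06 ± 0.18 (adjusted p = 0.68 and 0.96).

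Some genes of immunoglobulin assembly and secretion were higher in TI day 4, as lambda was. Of 20 tested, 5 were higher and 0 lower in TI day 4 than in TD day 4 (Edem1, Creld2, Hsp90b1, Jchain and Dnajc3). The shares over all tested probe sets were 0.731% and 0.717%. Against TD day 10, 5 were higher and 0 lower (Edem1, Creld2, Hsp90b1, Jchain and Xbp1), beside 1.20% and 1.20% of all tested. Against resting, 11 of the list were higher and 0 lower, beside 5.42% and 3.98% of all tested. Without TD day 4 replicate 1 or 2 or TI day 4 replicate 2, 0 were called against TD day 4, 1 without TI day 4 replicate 1, 2 without either TD day 10 array and 3 without either resting array or with the replicate block. Against TD day 10, 0 were called without TD day 10 replicate 1, 1 without TD day 10 replicate 2 or TI day 4 replicate 2 and 3 without TI day 4 replicate 1, and against resting 7 were called without resting replicate 2 or TI day 4 replicate 1 and 5 without TI day 4 replicate 2. The list median was 0.81, 1.17 and 1.33 in that order, beside -0.01, -0.08 and -0.02 over all tested probe sets. Jchain, which joins immunoglobulin polymers, read 7347 and 9356 in TI day 4, 2266 and 2770 in TD day 4, 1860 and 2121 in TD day 10, and 803 and 764 in resting. Jchain was also called higher than resting in TD day 4 (1.68 ± 0.20, adjusted p = 0.006) and in TD day 10 (1.34 ± 0.20, adjusted p = 0.011), where the lambda differences were 0.20 and -1.16. The call in TD day 10 was lost without TD day 10 replicate 1 or 2.

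Of 6 plasma cell markers 4 were tested. In TI day 4, 1 was called higher than in TD day 4 (Jchain) and 2 than in TD day 10 (Jchain and Xbp1). Of all tested probe sets 0.731% and 1.20% were called higher in these comparisons. Against resting 3 markers were called higher (Jchain, Xbp1 and Tnfrsf17), beside 5.42% of all tested. Jchain and Xbp1 are also in the list of assembly and secretion, so these counts are not separate from those above. Against TD day 4 the count was 1 without either resting array and 0 without any single one of the other 6 arrays. Against TD day 10 it was 0 without TD day 10 replicate 1 or 2 or TI day 4 replicate 2 and 1 without any single one of the others, and against resting it was 1 without resting replicate 2 or TI day 4 replicate 2. The summed intensity of the 6 markers was 10289 to 13728 in TI day 4, 3502 to 4167 in TD day 4, 2844 to 3584 in TD day 10 and 2135 to 2255 in resting. Of the TI sums 7347 and 9356 came from Jchain and 2072 and 2951 from Xbp1. Sdc1 and Prdm1, which define plasma cells, read -45 to 106 and 36 to 83. The ratio of 3' to 5' signal of the Gapdh control was 1.24 and 1.68 in TI day 4, 0.981 and 0.954 in TD day 4, 0.836 and 0.896 in TD day 10, and 0.867 and 1.59 in resting. Macrophage markers, of which 8 of 9 were tested, summed to 5764 to 6540 in TI day 4 and to 1886 to 3555 on the other arrays. Of the TI sums 4213 and 3371 came from Apoe, and without it the other 8 summed to 2327 to 2393 in TI day 4, 1409 to 1727 in the T-dependent arrays and 2780 to 2955 in resting. Apoe was called higher in TI day 4 than in resting (2.70 ± 0.45, adjusted p = 0.017) and TD day 10 (2.75 ± 0.45, adjusted p = 0.038). The Apoe call against TD day 10 was lost without any single array. C1qa and C1qc, complement genes of macrophages, were called lower in TI day 4 than in resting (adjusted p = 0.0028 and 0.0071). They were also called lower than resting in both T-dependent groups. C1qb read 871 and 1066 in TI day 4 and 598 to 776 on the other arrays. Red cell markers summed to 21967 to 24423 in resting and to 350 to 1025 in the germinal centre arrays, and neutrophil markers to 6282 to 6548 and to 1600 to 2690. The part of these transcripts and of the plasma cell markers in the lambda and Igll1 values was not tested. With the Gapdh ratio as a covariate the lambda difference between TI day 4 and TD day 4 was 2.66 (adjusted p = 0.063), that between TI day 4 and TD day 10 was 4.01 (adjusted p = 0.041) and that between TI day 4 and resting was 2.87 (adjusted p = 0.0061). In the same fit the Igll1 difference was 1.27 (adjusted p = 0.17), 1.51 (adjusted p = 0.18) and 1.16 (adjusted p = 0.035).

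The genes most like the lambda probe set across the 8 arrays, by Pearson correlation of log2 values and with no test, were Nfatc1 (0.983), Hsd3b5 (0.975) and Hspa5 (0.974). Nfatc1, a transcription factor of antigen receptor signalling, read 1097 and 842 in TI day 4 and 220 to 403 on the other arrays. Hspa5, the chaperone that holds unassembled immunoglobulin heavy chains, read 1983 and 2037 in TI day 4 and 928 to 1356 on the others. Most like the Igll1 probe set 99429_at were H13 (0.983), Ces1d (0.977) and Pfn1 (0.976), and most like the Vpreb3 probe set 93957_at were Fam32a (0.978), Irgm1 (0.978) and Hes1 (0.969). For the lambda and Igll1 probe sets these correlations rest largely on the 2 TI arrays. The Vpreb3 probe set 93957_at and the genes most like it all read highest on resting replicate 1, at 1185 for 93957_at. For members with arrays under the floor the correlations, not given here, rest partly on those arrays.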

How the data were processed

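RNA of sorted, pooled B cells was measured on 8 arrays in 4 groups of 2, with RNAzol extraction and biotin labelling per the labels. The deposited values are whole-number intensities on a linear scale, 30.1% of them 0 or below. No source used here names the authors' software or scaling. Intensities under 81, the 50th percentile, were set to it before log2, and probe sets above it on at least 2 arrays were tested, 7253 of 12488, with 66 control probe sets left out. The tests used limma 3.58.1 in R 4.3.3, with 1 model of the 4 groups across all probe sets, two-sided, and Benjamini-Hochberg adjustment. The residual degrees of freedom were 4, with 2.2 from the prior. The method was also run on simulated data, drawn as normal values without a floor and with changes placed in TI day 4 only. Of the tested values here 15.5% were at the floor, so that run does not cover such probe sets. A fold whose dimmer side is at the floor is a lower bound. A gene of a list with several probe sets is given by its brightest. Named were all members, the 3 genes most like each tested member (given for part of them), preset list genes and the 2 called genes of each list with the smallest p. The members and lists were chosen with earlier results of these data known. Probe names follow the platform annotation, in which 10855 probe sets have 1 symbol, 396 several and 1237 none. Precision is limited by the 8 arrays. Alternatives were other floors, a generalized log, quantile or median scaling, other filters, a replicate block, only the arrays compared, another prior, array weights, the Gapdh ratio as a covariate and leaving out each array.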

Additional observations from a re-analysis of the deposited data

Results flagged for a closer look

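For 2 probe sets the difference from resting B cells was not the same in all germinal centre groups, by the contrast of the limma fit itself. That contrast is the difference between germinal centre groups already given above, so it is not separate evidence. At 93638_s_at (Iglc1 and Iglv1) the difference from resting was larger in TI day 4 than in TD day 4 by 2.67 and than in TD day 10 by 4.03 on the log2 scale (adjusted p = 0.0067 and 0.0015). At 99429_at (Igll1) it was larger by 1.38 and 1.66 in the same order (adjusted p = 0.032 and 0.014). Both arrays of TI day 4 were above both arrays of each other group at either probe set.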

How the results depend on the processing

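The lambda probe set 93638_s_at kept its direction in all 20 alternatives in each of the 3 comparisons of TI day 4. Its call held in 16 of 20 against TD day 4 (2.44 to 2.90), 19 of 20 against TD day 10 (3.94 to 4.17), 20 of 20 against resting (2.81 to 2.93) and, for the fall in TD day 10 from resting, 14 of 20 (-1.28 to -1.05). The Igll1 probe set 99429_at kept its direction in all, and its call in 10, 14 and 17 of 20 in the same 3 comparisons of TI day 4. Of the 8 members, the number called between TI day 4 and TD day 4 was 2, and it became 1 with no filter, 1 with the replicate block, and 0 with only the arrays compared or the Gapdh ratio as a covariate. Between TI day 4 and TD day 10 it was 2, and 0 with only the arrays compared and 1 with the Gapdh ratio. Between TD day 10 and resting it was 1, and 0 under both, and between TI day 4 and resting it was 2, and 1 with only the arrays compared. Fits with only the arrays compared have fewer arrays and residual degrees of freedom, and the cause of the other changes was not tested. Leaving out each array gave 0 to 2 for TI day 4 against TD day 4, 1 to 2 against TD day 10, 1 to 3 against resting, 0 to 1 for TD day 10 against resting, 0 to 1 for TD day 4 against resting and 0 between the T-dependent groups. The kappa count between TI day 4 and TD day 4 was 11 and ranged from 0 to 17, and that of immunoglobulin assembly and secretion was 5 and ranged from 0 to 8. Against TD day 10 they were 13 and 5 and ranged from 0 to 20 and from 0 to 10, and against resting 18 and 11, from 0 to 22 and from 3 to 12. Among the other 6 members, 4 of 708 values were called, each without 1 array, and 32 changed sign. For pairs of arrays that carry one replicate number, the correlation of deviations from the group means lay between -0.217 and 0.121, which is no pairing. The replicate block ended 1 call of the members, that of Igll1 between TI day 4 and TD day 4. With 2 arrays a group, and values near the floor at 99428_at and 161297_f_at, small differences were not detectable. Nor were they at 93639_r_at, where replicates lay far apart (576 and -30 in resting).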
